A study of Homo sapiens with 3 samples.

Results

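The TIP60 (NuA4) complex acetylates histones H4 and H2A and exchanges the histone variant H2A.Z into chromatin, and 10 of its genes are described here: TRRAP, KAT5, EP400, RUVBL1, RUVBL2, DMAP1, ING3, EPC1, EPC2 and ACTL6A. They were listed by name as members of the complex, out of 20033 protein-coding genes, with earlier results of these data known. All CHD8 and TRRAP peaks were taken from 5 kb upstream of each gene to its end. Chromatin immunoprecipitation and sequencing was performed on wild-type neural stem cells made from the human embryonic stem cell line H9 and grown with EGF and FGF. Crosslinking used disuccinimidyl glutarate at 2 mM and then 1% formaldehyde, and sheared chromatin was precipitated with an antibody to CHD8, to TRRAP or with IgG. Each antibody had 1 library, so no difference in this text has a replicate check and no p-value is given. The IgG library was not analysed here. Values come from 1 cell line.

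TRRAP is a large scaffold without kinase activity that links transcription factors and acetyltransferases, and it serves the TIP60 and SAGA complexes. In TIP60 it meets EP400, a SWI/SNF2-type ATPase, and a catalytic module built from the acetyltransferase KAT5, an EPC scaffold and the H3K4me3 reader ING3. CHD8 is a CHD-family chromatin remodeler in which loss-of-function mutations are associated with autism. The TRRAP list therefore also reports where a subunit of the complex sat at the genes that encode it.

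The CHD8 list held 23393 peaks and the TRRAP list 14735. The numbers of reads behind them are unknown, so folds are read within a list and not between lists. The fold is the linear ratio of signal at the peak over the local background of the caller, as deposited. CHD8 peaks shared 161 distinct folds and TRRAP peaks 148, so equal folds at different genes are common. A promoter here reaches 1 kb upstream and 1 kb downstream of the start of the canonical GENCODE transcript. Expression was not measured, so the labelled cell type could not be checked on RNA. The promoters of 5 of 5 neural stem cell marker genes (SOX2, NES, PAX6, SOX1 and VIM) carried both proteins. Those of 5 marker genes of other cell types (ALB, CD3E, PTPRC, MYOD1 and GFAP) carried neither. Beside these, 34.0% of all coding genes had both promoter peaks and 55.9% had CHD8. Promoter occupancy is no measure of expression, so these markers describe the libraries and do not check the cell type.

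CHD8 occupied the promoter of all 10 complex genes (Wilson 95% interval 72.2 to 100%, counting error only), while 55.9% of all coding genes had a CHD8 promoter peak. Of those 11208 occupied genes, 8070 had an observed over expected CpG ratio at or above the median of all coding genes. The CHD8 share among genes of like CpG ratio was not computed, so a closer background for the 10 genes is missing. The same limit holds for the CHD8 counts of other pathway genes below. TRRAP occupied the promoters of 6 (60%, 31.3 to 83.2%): TRRAP itself, EP400, ING3, EPC1, EPC2 and ACTL6A. Across all coding genes 34.9% had a TRRAP promoter peak and 34.0% had both, against the same 6 of 10 here, because every complex gene with TRRAP also had CHD8. Since all 10 had CHD8, the closer background for TRRAP is the coding genes with a CHD8 promoter peak, of which 60.7% had TRRAP. The share of the complex genes was near that value and is no result about them. The 4 without a TRRAP promoter peak were the catalytic subunit gene KAT5, both genes of the RUVBL AAA+ ATPase pair, and DMAP1.

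**Figure D1:**
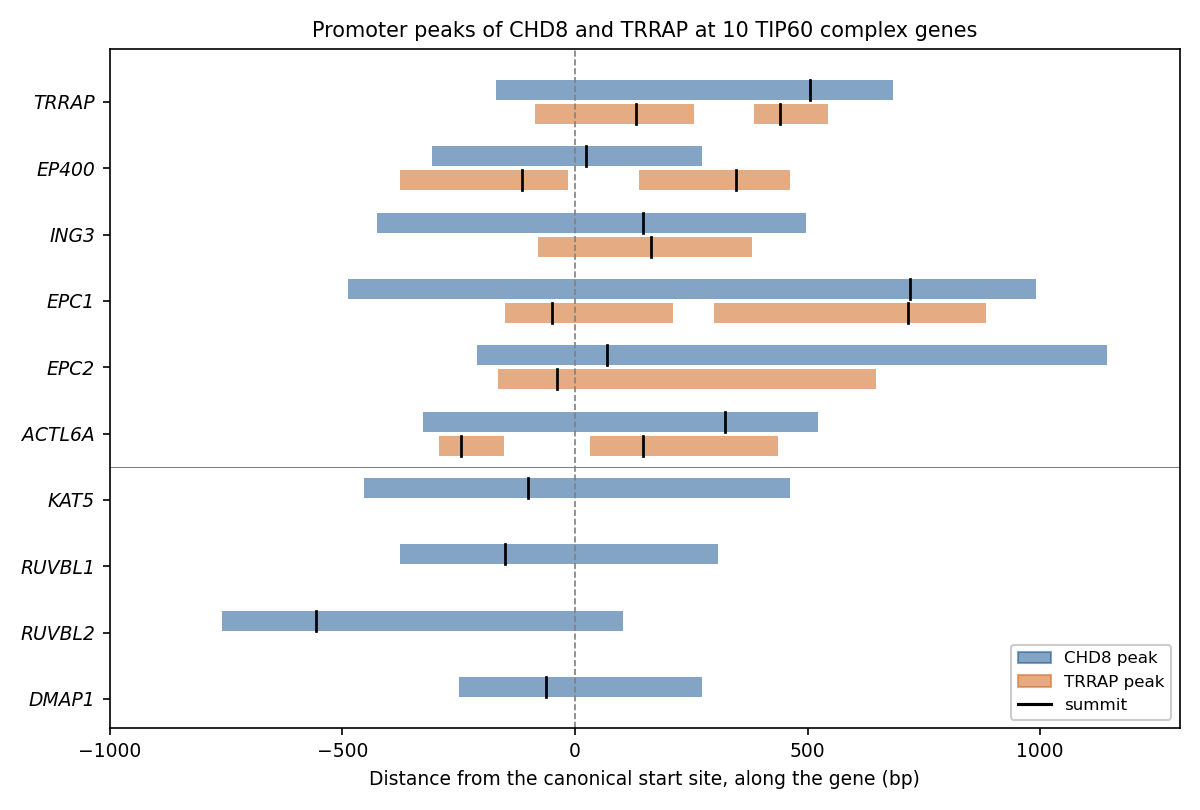
CHD8 peaks (blue) and TRRAP peaks (orange) at the promoters of the 10 genes, by distance in bp from the canonical start site along the gene, with black ticks at the summits. The upper 6 genes carried TRRAP, 4 of them in 2 separate peaks, and the lower 4 carried CHD8 only, with every CHD8 summit upstream of the start.

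The CHD8 peaks were strong for promoters. Their folds ran from 10.6 at RUVBL2 to 61.9 at EPC1 with a median of 24.3, and the median over all 11208 coding promoters with CHD8 was 12.0 (25th to 75th percentile 9.31 to 16.4). Folds of 20 or more, a level chosen after the values were seen, occurred at 6 of the 10 genes and at 15.4% of all occupied promoters. The order from the top was EPC1, DMAP1, ING3, EPC2, KAT5, RUVBL1, TRRAP, EP400, ACTL6A and RUVBL2. Without replicates it cannot be said which neighbours in this order differ. Where TRRAP was present, its strongest promoter fold ran from 8.17 at TRRAP to 31.6 at EPC1 with a median of 11.5, beside a median of 8.65 over 7000 coding promoters (25th to 75th percentile 7.21 to 11.5).

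**Figure D2:**
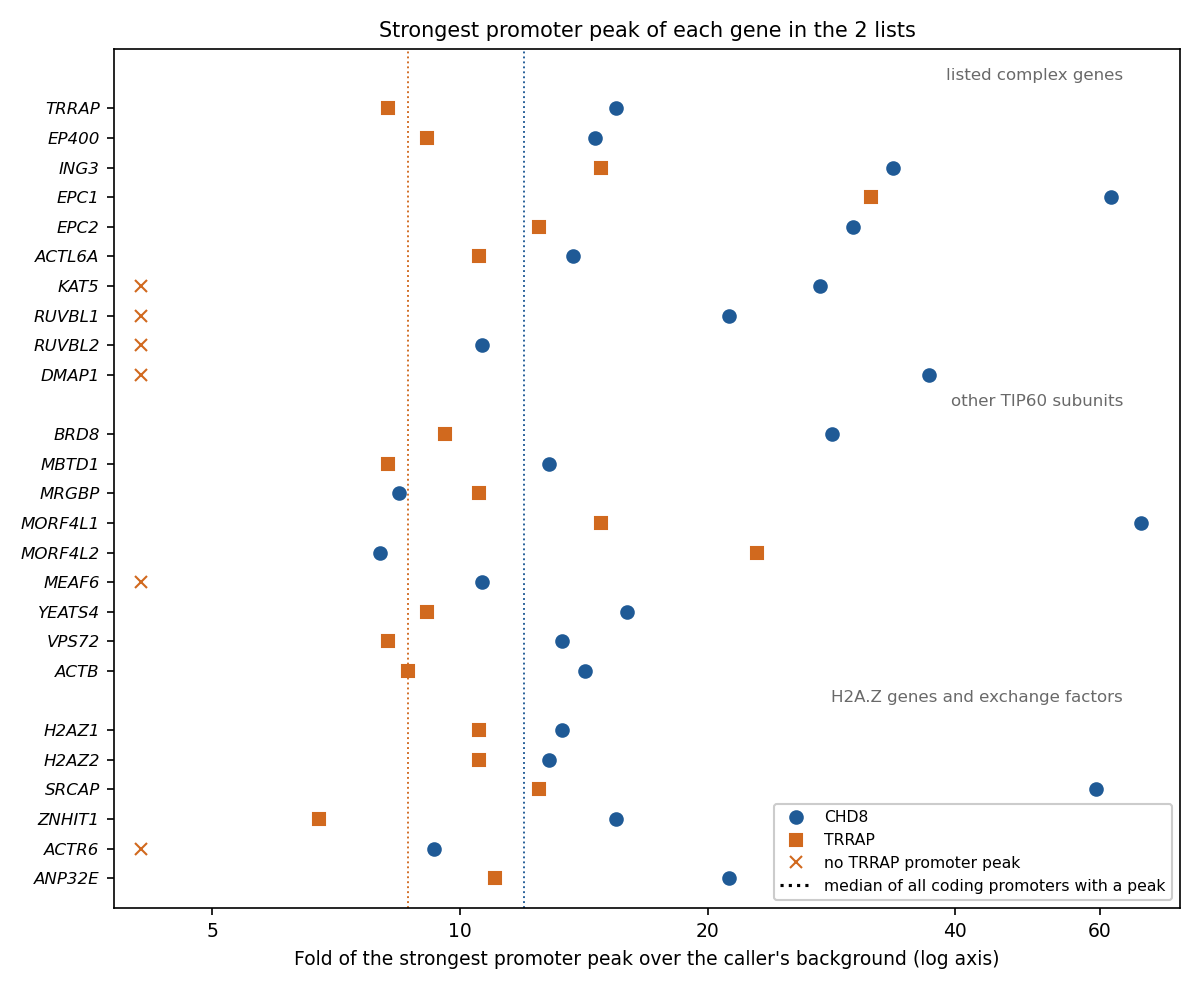
Fold of the strongest CHD8 (circles) and TRRAP (squares) promoter peak of each gene on a log axis, for the 10 listed genes, 9 other TIP60 subunits and 6 H2A.Z genes or exchange factors, 1 library per antibody. Crosses mark genes with no TRRAP promoter peak, and dotted lines mark the medians of all occupied coding promoters, 12.0 for CHD8 and 8.65 for TRRAP. DMAP1, KAT5 and RUVBL1 lie right of the CHD8 median and have no TRRAP value.

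Sequences around 5 CHD8 summits show what these sites look like: an intronic promoter peak with TRRAP at EPC1 and at TRRAP, upstream promoter peaks without TRRAP at RUVBL1 and DMAP1, and the peak deep inside EP400. They are GRCh38 reference sequence read 5′ to 3′ on the strand of the gene, within 100 bp of the summit, and the DMAP1 window stops before the canonical start. Capitals mark exact matches on either strand to the words for E-box (CACGTG), ETS (CCGGAAG), SP (GGGGCGGGG), NFY (CCAAT), YY1 (AAGATGGCG), NRF1 (GCGCATGC) or E2F (TTTCCCGC, TTTCGCGC, TTTGCCGC or TTTGGCGC). No word is part of another.
EPC1, chr10:32346337-32346537, minus strand: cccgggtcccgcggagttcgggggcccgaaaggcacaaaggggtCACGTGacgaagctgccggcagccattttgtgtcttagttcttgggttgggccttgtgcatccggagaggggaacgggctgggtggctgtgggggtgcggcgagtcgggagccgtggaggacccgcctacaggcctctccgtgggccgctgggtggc
TRRAP, chr7:98878937-98879137, plus strand: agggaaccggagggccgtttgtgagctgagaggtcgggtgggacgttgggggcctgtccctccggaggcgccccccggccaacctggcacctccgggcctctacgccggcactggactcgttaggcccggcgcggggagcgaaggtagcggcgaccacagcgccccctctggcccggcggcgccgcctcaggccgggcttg
RUVBL1, chr3:128123863-128124063, minus strand: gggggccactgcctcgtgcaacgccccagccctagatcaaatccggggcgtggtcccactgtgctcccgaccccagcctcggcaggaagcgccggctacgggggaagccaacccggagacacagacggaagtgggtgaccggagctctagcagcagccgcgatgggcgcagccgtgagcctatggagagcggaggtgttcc
DMAP1, chr1:44213309-44213470, plus strand: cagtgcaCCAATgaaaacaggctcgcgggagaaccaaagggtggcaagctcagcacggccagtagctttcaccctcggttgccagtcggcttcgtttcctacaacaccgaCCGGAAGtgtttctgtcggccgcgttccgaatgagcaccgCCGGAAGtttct
EP400, chr12:131990814-131991014, plus strand: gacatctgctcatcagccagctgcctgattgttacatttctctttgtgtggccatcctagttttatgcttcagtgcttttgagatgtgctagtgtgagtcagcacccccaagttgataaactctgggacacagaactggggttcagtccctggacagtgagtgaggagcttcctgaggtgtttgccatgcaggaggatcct

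The promoter windows shown are dense in CpG, and the EP400 intron window holds none. Over the full 201 bp there were 17 CpG at EPC1, 23 at TRRAP, 17 at RUVBL1 and 18 at DMAP1. The EP400 intron window held 0 CpG at a GC content of 49.8%. The E-box, the site of MYC and MAX, was found at EPC1 alone among the 10 promoter summits, and 6.94% of 11208 occupied coding promoters held it in the same window. The ETS word was found at 4 genes (KAT5, EP400, DMAP1 and ACTL6A), beside 16.7% of occupied promoters. It occurred in 2 copies at KAT5 and DMAP1, beside 3.10% of occupied promoters with 2 or more. SP words were found at RUVBL2 and ACTL6A (17.7% of promoters) and CCAAT at RUVBL2 and DMAP1 (18.4%). No E2F, NRF1 or YY1 word was found at any of the 10, beside 3.77%, 3.06% and 5.53% of promoters. These matches describe the letters in a 201 bp window and say nothing about binding of a factor.

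Among the scaffold genes, EPC1 held the strongest peaks of the set in both lists. EPC1 and EPC2 encode the human Enhancer of Polycomb proteins, which tether KAT5 to the rest of the complex. At EPC1 (ENSG00000120616, chromosome 10, 32267751 to 32378798, minus strand) a CHD8 peak of 1480 bp (32346166 to 32347645) reached a fold of 61.9 and a −log10 q of 211, rank 53 of its list. The TRRAP peak inside it (32346275 to 32346859) reached a fold of 31.6 and a −log10 q of 80.3, rank 217. Its summit lay 5 bp from the CHD8 summit, and both were in intron 1 of the canonical transcript, 721 bp (CHD8) and 716 bp (TRRAP) downstream of the start. The start of the long noncoding RNA EPC1-AS2 was nearer, 62 bp from the CHD8 summit. A second TRRAP peak, at 32346947 to 32347309 (fold 12.5), lay at the canonical EPC1 start itself with its summit 49 bp upstream.

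EPC2 (ENSG00000135999, chromosome 2, 148644440 to 148787569, plus strand) had 1 peak of each protein. The CHD8 peak, at 148644541 to 148645894, was 1354 bp wide with a fold of 30.1, and its summit lay 69 bp downstream of the start in the 5′ UTR of exon 1. The TRRAP peak, at 148644586 to 148645399, was 814 bp wide with a fold of 12.5, and its summit lay 38 bp upstream of the start. It was the widest TRRAP peak of the set. At both EPC genes the CHD8 peaks were thus the widest of the 10, and the whole of every TRRAP peak lay within them.

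At the TRRAP gene (ENSG00000196367, chromosome 7, 98877933 to 99050831, plus strand) the protein was present at its own promoter at a middle level for the list, whose median fold was 8.17. The CHD8 peak spanned 98878363 to 98879216, with a fold of 15.5, rank 3512 and a summit in intron 1, 505 bp downstream. The TRRAP peaks under it were at 98878447 to 98878787 (fold 7.21, rank 9757) and 98878918 to 98879075 (fold 8.17, rank 8100). Their summits lay 131 and 441 bp downstream of the start, both in intron 1. The stronger had 44.8% of all occupied coding promoters at or below its fold. No other peak of either list was found in the 173 kb gene.

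KAT5, the acetyltransferase that gives the complex its name, carried a strong CHD8 peak and no TRRAP. At KAT5 (ENSG00000172977, chromosome 11, 65711996 to 65719604, plus strand) the CHD8 peak (65711799 to 65712715) reached a fold of 27.4 and a −log10 q of 71.9, at the 93.2nd percentile of occupied promoters. The summit lay 100.0 bp upstream of the canonical start. No TRRAP peak was found from 5 kb upstream to the end of this 7.61 kb gene.

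ING3 and DMAP1 had CHD8 peaks of like fold and differed in TRRAP. ING3 carries a PHD finger that binds H3K4me3. At ING3 (ENSG00000071243, chromosome 7, 120950763 to 120977216, plus strand) the CHD8 peak (120950352 to 120951274) reached a fold of 33.6, with its summit 147 bp downstream of the start in the coding part of exon 1. The TRRAP peak (120950697 to 120951158) reached a fold of 14.9, rank 1666, and its summit was 17 bp from that of CHD8, in intron 1. DMAP1, a SANT-domain protein first known as a partner of the DNA methyltransferase DNMT1, had the second strongest CHD8 peak of the set. At DMAP1 (ENSG00000178028, chromosome 1, 44213455 to 44220681, plus strand) the CHD8 peak (44213221 to 44213744) reached a fold of 37.2 and a −log10 q of 107, with its summit 62 bp upstream of the start. It was also the narrowest CHD8 promoter peak of the set, 524 bp, and no TRRAP peak was found in the range of the gene.

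The remodeling genes EP400, RUVBL1, RUVBL2 and ACTL6A had CHD8 folds at or below 21.2. EP400 exchanges H2A.Z, RUVBL1 and RUVBL2 form the ATPase ring that TIP60 shares with INO80 and SRCAP, and ACTL6A is an actin-related protein shared with neural progenitor BAF. At the EP400 promoter (ENSG00000183495, chromosome 12, gene 131949942 to 132080460, plus strand) the CHD8 peak (131949635 to 131950215) reached a fold of 14.6 and a summit 24 bp downstream of the start, in the 5′ UTR of exon 1. TRRAP peaks stood on both sides of that summit, at 131949565 to 131949928 (fold 9.12, summit 113 bp upstream) and 131950079 to 131950405 (fold 5.78, summit 346 bp downstream). The CHD8 summit itself lay in the gap between them.

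ACTL6A (ENSG00000136518, chromosome 3, 179562886 to 179588407, plus strand) also had 2 TRRAP peaks under 1 CHD8 peak. Its CHD8 peak (179562600 to 179563449) reached a fold of 13.7 and a summit 323 bp downstream of the start, in intron 1. The stronger TRRAP peak, at 179562958 to 179563362 with a fold of 10.6, had its summit 147 bp downstream in the 5′ UTR of exon 1. The weaker, at 179562633 to 179562774 with a fold of 6.26, had its summit 245 bp upstream. Both TRRAP summits lay on the upstream side of the CHD8 summit, 176 and 568 bp away, and the CHD8 summit fell inside the stronger TRRAP peak.

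RUVBL1 and RUVBL2, which act as a pair, had no TRRAP at their canonical promoters. At RUVBL1 (ENSG00000175792, chromosome 3, 128064778 to 128153914, minus strand) the CHD8 peak (128123505 to 128124187) reached a fold of 21.2 and a summit 151 bp upstream of the start. At RUVBL2 (ENSG00000183207, chromosome 19, 48993562 to 49015970, plus strand) the CHD8 peak (48993128 to 48993990) reached a fold of 10.6, the lowest of the set. Its summit lay 556 bp upstream of the canonical RUVBL2 start and 231 bp upstream of the nearest start of any annotated RUVBL2 transcript. The start of GYS1, the muscle glycogen synthase gene, was nearer, 22 bp from the summit. Counting only peaks whose summit was nearest to the canonical start of the gene itself among coding genes left 9 of 10 with CHD8, without RUVBL2, beside 50.4% of all coding genes under that rule.

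Outside the promoter windows CHD8 had 5 peaks in 3 of the 10 genes and TRRAP had 2 in 2 genes, beside 24.3% and 15.2% of all coding genes with at least 1. These shares are near the background and are no result about the complex genes. The genes ran from 7.23 to 173 kb in length, and the ranges of 7 genes held no CHD8 peak away from the promoter.

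**Figure D3:**
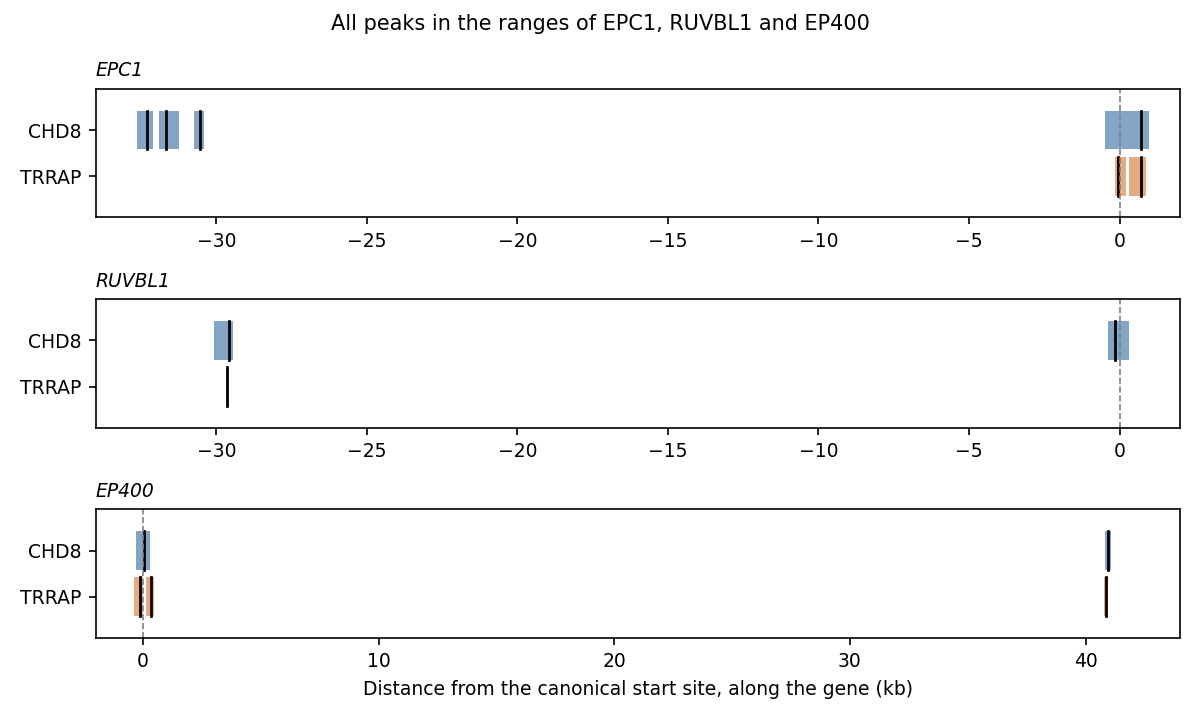
All CHD8 (blue) and TRRAP (orange) peaks in the ranges of EPC1, RUVBL1 and EP400, by distance in kb from the canonical start along the gene, with black ticks at the summits. These genes hold the 5 CHD8 and 2 TRRAP peaks outside a promoter window: 3 CHD8 peaks 30.6 to 32.3 kb upstream of the canonical EPC1 start, a pair 29.6 kb upstream at RUVBL1 and a pair 41.0 (CHD8) and 40.9 kb (TRRAP) inside EP400.

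The EPC1 group lay at an alternative start of that gene. Its middle peak, at 32378409 to 32379054 with a fold of 19.5, had its summit 21 bp upstream of the nearest annotated EPC1 transcript start and 31661 bp upstream of the canonical start. The flanking peaks, at 32377574 to 32377910 and 32379253 to 32379806, had folds of 7.54 and 12.8. No TRRAP peak was found at this upstream start, although the canonical promoter of EPC1 carried the strongest TRRAP peak of the set. A test of that difference between the starts was not possible with 1 library.

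The RUVBL1 pair lay near an upstream start of that gene and nearer still to the start of a neighbour. The CHD8 peak at 128153252 to 128153879 (fold 18.6) and the TRRAP peak at 128153379 to 128153507 (fold 6.26) lay 509 and 457 bp, by their summits, from the nearest annotated RUVBL1 start. The same summits were 76 and 24 bp from the start of EEFSEC, which encodes the selenocysteine elongation factor. This was the only TRRAP peak in the RUVBL1 range, with rank 13423 of 14735.

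The EP400 pair was the only one deep within a gene body. The CHD8 peak at 131990770 to 131991016 (fold 10.2) and the TRRAP peak at 131990739 to 131990900 (fold 6.26, rank 13087) lay in intron 9, with summits 100 bp apart. The nearest start of any EP400 transcript was 30294 bp from the CHD8 summit, and the nearest canonical start of any gene was that of the small nucleolar RNA gene SNORA49, 40310 bp away. Its sequence, printed above, has none of the CpG content of the promoter summits.

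Every TRRAP peak in the ranges, 12 of 12, overlapped a CHD8 peak by at least 1 bp, beside 86.8% of all TRRAP peaks. Of the 12, 10 were promoter peaks, for which the closer background is coding genes with TRRAP at the promoter. Of those 7000 genes, 6802 also had a CHD8 promoter peak, so the full overlap is no result about the complex genes. In the other direction 8 of 15 CHD8 peaks overlapped TRRAP, beside 48.6% of all CHD8 peaks. Summits of overlapping peaks were a median of 122 bp apart, from 5 bp at EPC1 to 770.0 bp for the second EPC1 peak. TRRAP peaks were the narrower, with a median of 352 bp against 683 bp for CHD8, beside 229 and 376 bp over all peaks. That order held for the lists as a whole, which differ in threshold, and is no result about these genes. Most peaks in the ranges were promoter peaks, which is not so matched in the background of all peaks. For promoter peaks alone the medians were 363.5 bp (TRRAP) and 858.5 bp (CHD8). The strongest peaks of occupied coding promoters had medians of 269 and 638 bp. At 4 of the 6 genes with TRRAP (66.7%, 30.0 to 90.3%) the promoter held 2 TRRAP peaks, beside 23.8% of coding promoters with TRRAP. The weaker peaks at EP400 (rank 13726) and ACTL6A (rank 13262) had a −log10 q of 5.33, near the end of the 14735 TRRAP peaks. This count thus rests in part on weak calls, and it was not recomputed at a stricter threshold. CHD8 formed 1 peak at each of the 10 promoters, beside 23.2% of occupied coding promoters with 2 or more. With only 10 genes, neither of these peak counts was tested against its background. All 27 summits in the ranges lay in sequence that occurs once in the reference, by 32-base words over 101 bp.

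The strength of CHD8 did not separate the genes with and without TRRAP. CHD8 folds ran from 13.7 to 61.9 with a median of 22.8 at the 6 genes with TRRAP, and from 10.6 to 37.2 with a median of 24.3 at the 4 without, so the groups overlapped. Of the 6 genes with a CHD8 fold of 20 or more, 3 had TRRAP (EPC1, ING3 and EPC2, 50%, 18.8 to 81.2%), beside 76.3% of coding genes at that level. Of the 4 below it, 3 had TRRAP, beside 57.9%. Widths of the CHD8 promoter peaks also overlapped, at 581 to 1480 bp with TRRAP and 524 to 917 bp without.

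CpG content, examined after the groups were known, did separate them in this set. The CpG ratio, observed over expected CpG within 500 bp of the canonical start, was 0.993 at ING3, the highest of the set. It was 0.942 at EP400, 0.932 at EPC1, 0.906 at EPC2, 0.806 at TRRAP and 0.750 at ACTL6A. The genes without TRRAP followed below these, with 0.702 at RUVBL1, 0.691 at KAT5, 0.635 at DMAP1 and 0.613 at RUVBL2. The groups did not overlap, and the median of all coding genes, 0.725, fell between them. Of the CHD8-occupied coding promoters at or above that median 66.7% also held TRRAP, and of those below it 45.3%. For CHD8 folds of 20 or more and a ratio below the median, the class of KAT5, DMAP1 and RUVBL1, it was present at 62.3%. The part of CpG content in the difference between the 10 genes was not tested.

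**Figure D4:**
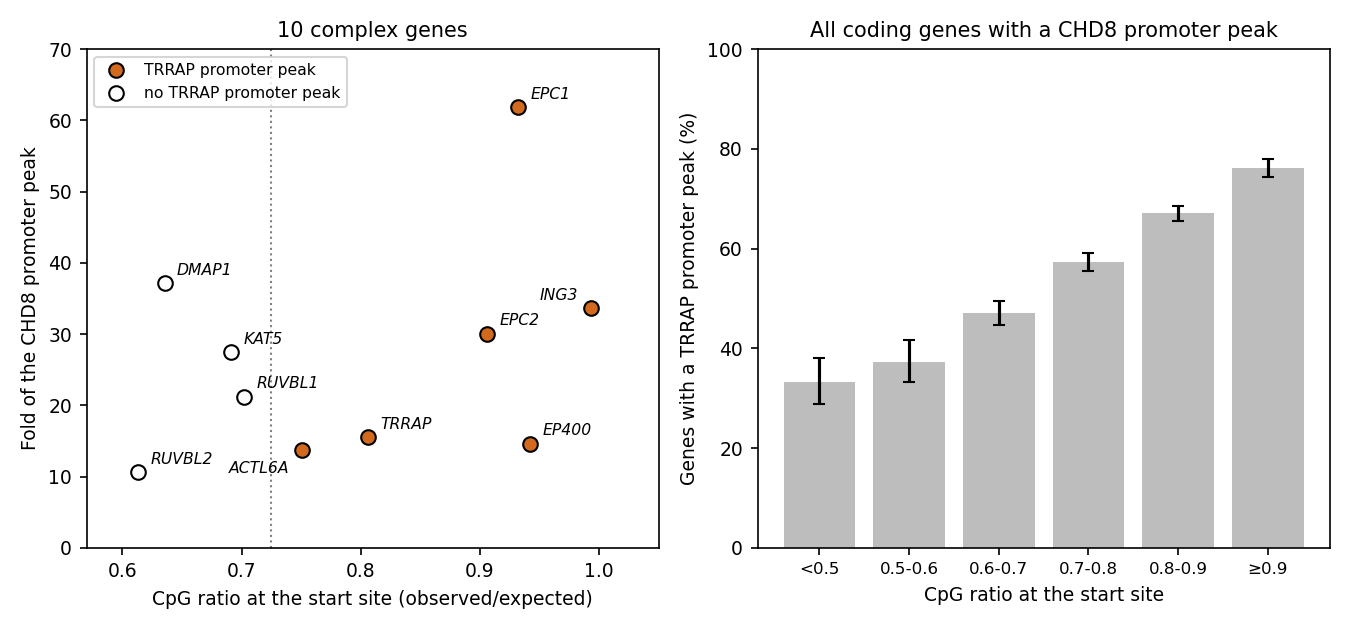
Left, fold of the CHD8 promoter peak against the CpG ratio (observed over expected) for the 10 genes, filled where a TRRAP promoter peak was present, with the median ratio of all coding genes (0.725) dotted. Right, share of coding genes with a CHD8 promoter peak that also had TRRAP, by CpG ratio, with Wilson 95% intervals. The 4 open points all lie left of the line, and the share on the right rises from 33.3% to 76.2%.

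The side of the start on which CHD8 peaked, also examined after the values were seen, split the genes in the same way. The CHD8 summit lay downstream of the canonical start at all 6 genes with TRRAP, by 24 to 721 bp, and upstream at all 4 without, by 62 to 556 bp. The same split was not seen across coding genes. The summit was downstream at 40.1% of genes with both proteins and at 43.7% of genes with CHD8 alone.

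The remaining subunits of the complex were listed from general knowledge. All 9 (BRD8, MBTD1, MRGBP, MORF4L1, MORF4L2, MEAF6, YEATS4, VPS72 and ACTB) had a CHD8 promoter peak, beside 55.9% of all coding genes, and 8 had TRRAP, beside 60.7% of coding genes with CHD8. The difference from the 6 of 10 genes above was not tested. The exception was MEAF6, which encodes a small subunit of several MYST-family acetyltransferase complexes, with a CHD8 fold of 10.6. At MBTD1 the CHD8 summit lay 110 bp from the start of UTP18 and 387 bp from that of MBTD1. The strongest TRRAP promoter peak there had its summit 147 bp from the MBTD1 start. The strongest CHD8 promoter peak was at MORF4L1, the gene of a chromodomain protein, where CHD8 reached a fold of 67.2 and TRRAP 14.9. The highest TRRAP promoter fold, 23.0, was at its X-linked paralog MORF4L2, where the strongest CHD8 promoter fold was 7.98. A stronger TRRAP peak, with a fold of 34.9, lay in the VPS72 range but outside its promoter, 134 bp from the start of PIP5K1A, and is named after its value was seen. In this group the median CHD8 fold was 13.3 and the median TRRAP fold 9.36.

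H2A.Z genes and the other exchange factors (H2AZ1, H2AZ2, SRCAP, ZNHIT1, ACTR6 and ANP32E) had CHD8 in 6 of 6 cases and TRRAP in 5, beside the same 55.9% and 60.7%. The ZNHIT1 peaks lay at a neighbouring gene. Their summits were 9 bp (CHD8) and 49 bp (TRRAP) from the start of PLOD3, and 575 and 633 bp from that of ZNHIT1. ACTR6, an actin-related subunit of the SRCAP complex, was without TRRAP and had a CHD8 fold of 9.31. SRCAP, the ATPase gene of that complex, had the highest folds of this group, 59.2 for CHD8 and 12.5 for TRRAP. The separation by CpG ratio seen among the 10 genes was not repeated in these 15. All 5 with a ratio below 0.725 had TRRAP, as did 8 of the 10 above it, and MEAF6 and ACTR6 without TRRAP had ratios of 0.938 and 0.835. Among the 5 was ZNHIT1 (0.644), whose only TRRAP peak, at the PLOD3 start, had a fold of 6.73 and rank 12481 of 14735.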

How the data were processed

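ChIP-seq of CHD8, TRRAP and IgG was performed in H9-derived neural stem cells with 1 library per antibody. Per the submitters' processing notes, HISAT2 and MACS2 2.1.1.20160309 were used on GRCh38. The control, filters and read totals are not given in the sources used here. The 2 deposited lists give 1 line per peak of 1 library, at false discovery rates of 0.0001 (CHD8) and 0.001 (TRRAP) per their names. The fold is a linear ratio made by the authors' caller. Their −log10 p and −log10 q were also used as deposited. In every peak the authors' score was 10 times −log10 q, rounded down, so it was not used further.

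Coordinates are GRCh38, counted from 1, and 0 peaks ran past a chromosome end. Peaks were compared with GENCODE release 44 in Python 3.11.15 with numpy 2.4.6, pandas 2.3.3, scipy 1.17.1, pysam 0.24.0 and matplotlib 3.10.9. Ranks follow −log10 q, then fold, width and position. Overlap needs 1 bp. Counting code was tested on simulated peaks. Wilson 95% intervals cover counting error only. The 10 genes and the lists were chosen with earlier results of these data known. All 10 genes are named. Other pathway genes are singled out where they lack a peak, hold the highest fold or have a CHD8 promoter summit nearer to another coding gene. Neighbouring genes are named where their start is nearer to a peak of the 10 genes, and for some of the other pathway genes. Promoter windows, start sites, thresholds, ranges and overlap rules were varied.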

Additional observations from a re-analysis of the deposited data

How the results depend on the processing

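In 47 of 52 recomputed values, counts stayed within 1.5 times the reported one or medians stayed equal. CHD8 was at 10 of the 10 promoters under 6 alternatives and at 9 under the rule of the nearest own start, which was chosen after seeing the data. TRRAP was at 5 to 7 promoters. It was at 5 with peaks above the median rank, where the TRRAP gene was lost. With the starts of all transcripts it was at 7, where RUVBL1 was gained through its upstream start near that of EEFSEC. That gain moved the median TRRAP fold to 10.6, and the nearest-start rule moved the median CHD8 fold to 27.4. Above the median rank, 6 TRRAP peaks were left in the ranges and 6 overlapped CHD8. With centres within 200 bp, 6 of the 12 overlapped. No paired analysis was possible because each antibody had 1 library. Peaks with a −log10 q near 5.33, at which 4 of the 12 TRRAP peaks lie, are close to the end of the list, so a missing TRRAP peak means not called at an unknown depth.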
